A study of Mus musculus with 11 samples.

Results

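Medial Kölliker's organ (KO) cells at embryonic day 14 (E14) of the mouse cochlea made up 247 of the 5253 E14 cells, in a series of 30634 cells. They were chosen by measured values. The deposited log value of Calb1, Crabp1 and Epyc had to be above 0, that of Otoa, Atoh1 and Bmp4 had to be 0, and that of Oc90 had to be under 2.5. These 7 genes are therefore described only, and they were left out of every test and count. Calb1 encodes a calcium-binding protein, Crabp1 a cytosolic retinoic acid-binding protein, and Epyc the small leucine-rich proteoglycan epiphycan. The excluded genes mark neighbours: Otoa the interdental cells at the medial edge, Atoh1 the hair cells, Bmp4 the lesser epithelial ridge (LER) on the lateral side, and Oc90 the roof of the duct.

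The series is a single-cell RNA-seq atlas of the cochlear duct, made to follow how its cell types arise, with 2 libraries at E14, 3 at E16, 4 at postnatal day 1 (P1) and 2 at P7. All mice were of the CD1 strain with a wild-type genotype and received no treatment, and the cells are labelled as cochlear sensory epithelium of the inner ear. Each embryonic library pooled cochleae of the embryos of a female without regard to sex, after the roof and lateral wall of the duct had been cut away. The E14 libraries, called replicates 1 and 2 here, had a median of 3507.5 and 3317 unique molecular identifiers (UMIs, each 1 captured transcript) per cell and shared 11 cell barcodes.

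KO is a transient epithelium that lies medial to the developing organ of Corti, between the future inner hair cells and the spiral limbus. Its cells secrete collagens and glycoproteins of the tectorial membrane, the matrix sheet that later overlies the hair cells, and before the onset of hearing they release ATP and drive spontaneous activity in the hair cells. At E14 the floor of the duct is being divided into KO on the medial side, the prosensory domain that forms hair cells and supporting cells, and the LER on the lateral side.

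Medial KO cells were 128 of the 2198 cells of replicate 1 (5.82%, exact 95% binomial interval 4.88 to 6.89, which covers counting error only) and 119 of the 3055 cells of replicate 2 (3.90%, 3.24 to 4.64). Their median depth was 3425 and 4449 UMIs, against 3510.5 and 3306.5 in the remaining E14 cells. The yield of the gate moved with depth, since 3 genes have to be seen: with every cell thinned to 1500 UMIs, 58 (2.64%) and 45 (1.47%) cells passed.

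The chosen genes show how sharp the gate was. A member held a median of 10 and 8 Epyc UMIs in replicates 1 and 2, 3 and 3 Calb1 UMIs, and 2 and 2 Crabp1 UMIs. Crabp1 rested on 1 UMI in 44 of the 128 and 47 of the 119 members, Calb1 in 30 and 18, and Epyc in 12 and 10, so many members were just inside the gate. Just outside it were 262 and 323 cells that met the exclusions and had 2 of the 3 chosen genes. Their mean Crabp1 level was 144 and 118 CPM (the gene's share of the UMIs of a cell on the usual CPM scale, averaged over cells), against 741 and 593 CPM in the members. The choice in part fixes this gap, since the gene that such a cell lacks may be Crabp1 itself. A further 6 and 8 cells had all 3 chosen genes but failed an exclusion, 3 and 5 of them through Otoa. Oc90 was not absent from the members: 35 and 39 of them had an Oc90 UMI, with highest log values of 2.48 and 2.12.

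The label was set beside a KO marker that the gate did not use and beside markers of other cells. Upp1, uridine phosphorylase 1, rose in the members, as given below with its values. It is on the study's list of KO cluster genes for E16, so it is not independent evidence for the label. Its rise over cells with Otoa lost its call in some alternatives, so it does not settle the medial position either. Summed over 7 epithelial genes the members stood at 4199 and 3280 CPM, against 5080 and 4547 CPM in the remaining E14 cells. Summed over 9 genes of periotic mesenchyme they stood at 0.593 and 8.42 CPM, with 8 and 4 of the 9 genes at 0. Only 1 of the 9 (Postn, lower in the members) reached the level needed for the test described below against all other E14 cells. The low sum therefore does little to set the members apart from those cells. Summed over 10 hair cell genes the members stood at 171 and 95.5 CPM, against 353 and 326 CPM in the remaining cells and 5718 and 6424 CPM in Atoh1-positive cells, a direction that the gate on Atoh1 in part fixes. The members thus carried epithelial transcripts and few of mesenchyme. Yet 4 of the 7 epithelial genes (Krt8, Epcam, Krt18, Cldn6) were called lower and 0 higher than in the remaining cells by the test described below (median log2 fold change -0.35). Of all genes tested 4.91% were lower and 3.12% higher there. Neuron and glia genes (7 in the table) summed to 190.3 and 265 CPM, against 219.8 and 244 CPM in the remaining cells, and 12 genes of blood and vessels to 58.8 and 22.1 CPM, against 60.2 and 14.8 CPM. The 8 roof genes summed to 408 and 429 CPM, of which Sparcl1 alone gave 401 and 426 CPM, while 3 and 6 of the 8 were at 0. The part of RNA from other cell types in the results was not tested.

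To learn which genes go with this choice of cells, the mean CPM of the members of each library was compared with that of 4 sets of cells from the same library. Position in the duct was not measured. All other E14 cells (2070 and 2936) gave the broad contrast. The cells that passed the same exclusions but lacked at least 1 chosen gene (1178 and 1813), called same-exclusion cells here, left only the 3 chosen genes as the difference in choice. Cells with Fgf20 (86 and 110), a ligand of the medial prosensory domain, and cells with Otoa (119 and 153) stood for the neighbours on the lateral and medial side. Both sets also had to have Atoh1 and Bmp4 at 0 and Oc90 under 2.5, and held no members. Differences are log2 fold changes of CPM + 10, so changes of low genes are understated, and each was tested with limma and Benjamini-Hochberg adjusted p over all genes tested, with the library as a block. A gene was tested where it averaged 10 CPM or more over the 4 profiles, so one under 10 CPM in the lower set of cells was tested only through the other set, which favours its call. This held for 20 of the 275 genes called higher and 138 of the 433 called lower against all other cells, 17 of 220 and 62 of 302 against same-exclusion cells, 49 of 345 and 151 of 462 against Fgf20-positive cells, and 7 of 123 and 31 of 180 against Otoa-positive cells. Of the genes named against all other cells it held for the rises of Slc24a3 and Ogn and for the falls of Fst, Gata2, Tac1, Plet1, Hs3st1, Lmo3, S100a1, Ecel1, Pcp4, Tk1, Fbln2, Spock2, Otogl, Cyp26a1, Aldh1a3, Rdh10, Ano1, Fgfr2, Etv4, Etv5, Lgr5, Nog, Emx2, Lmx1a, Otx2, Tbx1 and Tbx3, whose levels are to be read before their p. The 4 comparisons share the member profiles. The p-values measure the spread between these 2 libraries only, and with 1 residual degree of freedom the standard errors (SE) were drawn wholly or mostly from the spread of other genes of like level.

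Against all other E14 cells, medial KO cells had more Adgrg2, Upp1, Slc12a2 and Dcn, and far less Fst, Gata2, Tac1 and Tectb. Of 8827 genes tested, 275 were higher (3.12%) and 433 lower (4.91%), with a median log2 fold change of -0.02 over all genes tested. Without the library block 61 were higher and 141 lower. A total of 1492 genes had an unadjusted p under 0.05.

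The steepest rise was that of Adgrg2, an orphan adhesion G protein-coupled receptor (chromosome X: 160390690 to 160498070, GRCm38). It stood at 122 and 149 CPM in the members of replicates 1 and 2, and at 18.1 and 22.5 CPM in the cells outside the gate (2.26 ± 0.19 (SE) on the log2 scale, limma adjusted p = 2.16e-29). Upp1 (chromosome 11: 9118103 to 9136170) stood at 175 and 211 CPM against 40.4 and 40.2 CPM (2.01 ± 0.16, limma adjusted p = 2.02e-31). Upp1 is an enzyme of uridine salvage, and of 20 tested nucleoside and nucleotide enzymes it was higher and 2 (Tk1, Rrm2) were lower, where 3.12% and 4.91% of all genes were higher and lower. Thinned to 1500 UMIs per cell, 20.3% and 24.4% of members had an Upp1 UMI, against 0 of 345 (which allows a share of up to 0.870%) and 1.05% of the cells with Oc90 at 2.5 or more. Their median depth was 4621 and 4365.5 UMIs. Before thinning these shares were 47.7% and 52.9% of members and 1.74% and 1.75% of the Oc90 cells.

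Among the 12 genes with the largest rises, 3 encode ion or lipid transporters. Slc12a2, the sodium-potassium-chloride cotransporter NKCC1, stood at 298 and 369 CPM against 96.4 and 122 CPM (1.53 ± 0.13, limma adjusted p = 3.04e-30). Abcg5, a sterol transporter subunit, stood at 97.3 and 75.2 CPM against 18.1 and 23.6 CPM (1.64 ± 0.21, limma adjusted p = 2.28e-13). Slc24a3, a sodium/calcium-potassium exchanger, was scarce and uneven, at 29.7 and 58.5 CPM against 10.1 and 9.58 CPM (1.40 ± 0.24, limma adjusted p = 3.65e-07), and it lost its call without the block (adjusted p = 0.0913). Slc24a3 was tested only through the members. In each case both libraries were higher in members than either was in the other cells.

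Others of the 12 were of unlike kinds. Rspo2, a secreted enhancer of Wnt signalling, stood at 117 and 105 CPM against 40.6 and 33.3 CPM (1.37 ± 0.18, limma adjusted p = 5.95e-12). Gxylt2, which adds xylose to O-glucose on epidermal growth factor repeats, stood at 98.6 and 105 CPM against 30.0 and 31.3 CPM (1.46 ± 0.19, limma adjusted p = 2.07e-12). Tmem266, a membrane protein with a voltage sensor domain, stood at 183 and 209 CPM against 67.2 and 64.4 CPM (1.44 ± 0.15, limma adjusted p = 5.81e-19). These 3 genes were alike in both libraries. Iigp1, an interferon-induced GTPase, was at 31.7 and 59.1 CPM against 12.3 and 8.94 CPM (1.39 ± 0.24, limma adjusted p = 3.61e-07; 0.0884 without the block). Sh3bgrl2 was at 44.6 and 58.5 CPM against 15.4 and 12.6 CPM, a log2 fold change of 1.35.

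Of the 10 genes that fell most, 5 were on the list of LER markers, though Fst and Tac1 were high in Fgf20-positive cells too, as given below. All 9 LER genes were lower, where 4.91% of all genes tested were, 7 of them without the block too, with a median log2 fold change of -3.12. This direction is partly fixed by the choice, since Bmp4-positive cells were excluded from the members and kept in the compared cells. The choice of genes by level adds to this, since Fst, Gata2, Tac1, Plet1, Hs3st1 and Lmo3 were under 10 CPM in the members and were tested only through the compared cells. Fst, an antagonist of activin, stood at 12.8 and 0.839 CPM against 254 and 235 CPM (-4.02 ± 0.19, limma adjusted p = 7.66e-89). Gata2, a zinc finger transcription factor, was at 7.37 and 7.29 CPM against 282 and 198 CPM (-3.83 ± 0.19, limma adjusted p = 6.44e-83). Gata2 was also a gene of the excluded roof cells: in cells thinned to 1500 UMIs, 31.6% and 30.2% of those with Oc90 at 2.5 or more had a Gata2 UMI, against 4.33% and 5.24% of the cells that passed the exclusions without being members and 0.840% and 0 of 153 (which allows a share of up to 1.96%) of the Otoa cells described below. Before thinning the shares were 52.8% and 51.6% (median depth 4621 and 4365.5 UMIs), 7.39% and 8.71% (2958.5 and 2783), and 1.68% and 0.654% (3880 and 3764). Tac1, which encodes the precursor of substance P, had no UMI in any member and stood at 137 and 123 CPM in all other cells. A floor of 3 UMIs over the members of both libraries, 2.39 CPM, makes Tac1 at least 54.2-fold lower.

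Among the others of the 10 genes with the largest falls, Tectb, Socs2, S100a1, Ecel1 and Pcp4 are outside the LER list, and Plet1 and Hs3st1 belong to it. Tectb, which encodes beta-tectorin, stood at 16.7 and 3.49 CPM against 184 and 232 CPM (-3.51 ± 0.19, limma adjusted p = 6.34e-69). Socs2, a suppressor of cytokine signalling, stood at 61.8 and 10.7 CPM against 399 and 364 CPM (-3.34 ± 0.15, limma adjusted p = 7.58e-100). S100a1, a calcium-binding protein, stood at 14.6 and 4.97 CPM against 204 and 186 CPM (-3.41 ± 0.2, limma adjusted p = 4.40e-64). The members of replicate 1 held more Tectb, Socs2 and S100a1 than those of replicate 2, yet far less than the other cells of their own library. Ecel1, a membrane protease, was at 0 and 1.51 CPM against 88 and 117 CPM. In cells that met the same exclusions with 0 chosen genes it stood at only 6.82 and 2.98 CPM. Its fall thus rests on cells that failed an exclusion and is in part fixed by the choice. Plet1, an epithelial surface protein, was at 10.8 and 0 CPM against 146 and 114 CPM. Hs3st1, a heparan sulfate sulfotransferase, and Pcp4, a calmodulin-binding peptide on the hair cell list, had log2 fold changes of -3.12 and -3.20. Pcp4 was not confined to Atoh1-positive cells. In cells that met the same exclusions with 0 chosen genes it stood at 118 and 92.6 CPM.

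**Figure D1:**
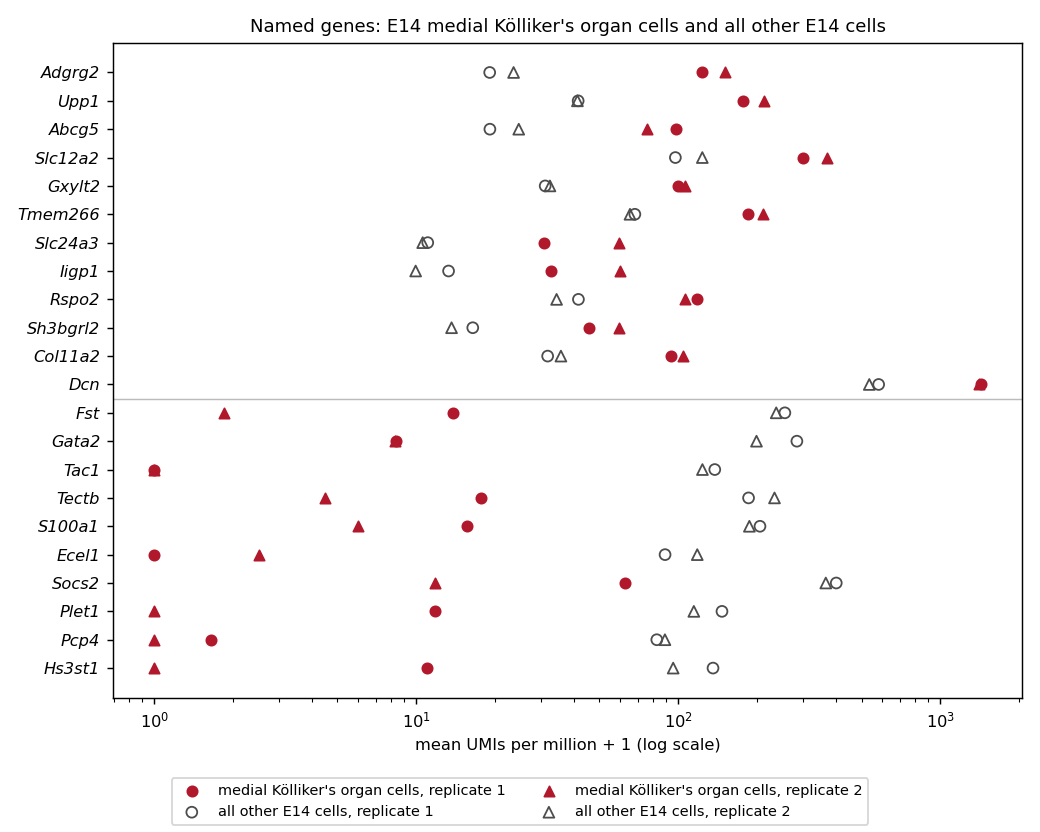
Mean CPM + 1 (log axis) of the genes named against all other E14 cells, with filled red symbols for medial KO cells, open grey symbols for all other E14 cells, circles for replicate 1 and triangles for replicate 2. For the genes that rose the red symbols lie to the right, as with Upp1 at 175 and 211 CPM against 40.4 and 40.2 CPM, and for those that fell they lie far to the left.

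Narrowing the comparison to same-exclusion cells asked what goes with Calb1, Crabp1 and Epyc when both sides meet the same limits on Otoa, Atoh1, Bmp4 and Oc90. These limits did not clear transcripts of the LER list from the compared cells, where Fst stood at 152 and 184 CPM, Tac1 at 77.0 and 98.4 CPM and Plet1 at 91.1 and 93.4 CPM. Such levels need not come from LER cells, since Fgf20-positive cells had 401 and 327 CPM of Fst and 95.0 and 149 CPM of Tac1. Of the LER list, 7 of 8 genes tested were lower in the members (median -2.02; 4 without the block). Among them Fst, Tac1, Plet1, Hs3st1 and Gata2 were under 10 CPM in the members and were tested only through the compared cells. Of 8728 genes tested, 220 were higher (2.52%) and 302 lower (3.46%), with 1390 genes at an unadjusted p under 0.05. Far fewer genes passed without the library block, 8 higher and 25 lower. Upp1 (1.61 ± 0.16, limma adjusted p = 3.56e-21) and Adgrg2 (1.90 ± 0.19, limma adjusted p = 2.24e-21) were again higher, against 56.9 and 55.3 CPM of Upp1 and 26.5 and 31.4 CPM of Adgrg2 in the same-exclusion cells. Slc12a2 (1.20), Gxylt2 (1.29), Col11a2 (1.25) and Iigp1 (1.34; adjusted p = 0.128 without the block) were also higher.

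Meg3, an imprinted long noncoding RNA, joined this group, at 357 and 442 CPM in the members against 104 and 168 CPM (1.51 ± 0.12, limma adjusted p = 2.06e-33; 0.0618 without the block). In all other E14 cells, however, Meg3 stood at 261 and 447 CPM, so the members of replicate 2 were not higher than those. Igf1, a secreted growth factor, stood at 95.1 and 129 CPM against 40.9 and 57.1 CPM (1.05 ± 0.18, limma adjusted p = 5.16e-07; 0.119 without the block). Against all other E14 cells, which include roof cells, Igf1 did not pass the test, at 79.8 and 97.2 CPM in those cells (0.30 ± 0.16, adjusted p = 0.325), and it passed with the roof cells left out (0.92). Pcdhb17, a protocadherin of a gene family with close copies whose reads may be split between them, was at 59.3 and 25.5 CPM against 10.4 and 11.5 CPM. That rise of 1.24 rested on 13 and 14 members with a UMI, lost its call without the block (adjusted p = 0.214) and was 0.50 with the gate set on thinned cells (adjusted p = 0.79).

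On the log2 scale of CPM + 10, the deepest fall against the same-exclusion cells was that of Tectb (chromosome 19: 55180733 to 55196313), at 274 and 336 CPM in those cells (-4.05 ± 0.19, limma adjusted p = 4.65e-99). Hmga2, a chromatin protein of immature cells, stood at 20.4 and 11.8 CPM in members against 215 and 236 CPM (-3.19 ± 0.19, limma adjusted p = 2.56e-62). Isl1, a LIM homeodomain factor of the prosensory domain, stood at 116 and 23.2 CPM against 555 and 531 CPM (-3.09 ± 0.13, limma adjusted p = 5.46e-114). The small SE of Isl1 does not show how far apart its libraries were: the log2 fold change was -2.17 in replicate 1 and -4.02 in replicate 2, and the adjusted p without the block was 0.0735. Socs2 (-3.45) lost its call in the same way (adjusted p = 0.0618). Fst (-3.49), S100a1 (-3.35) and Plet1 (-2.83) were lower too, and Tac1 was at least 36.7-fold lower by the same floor. Fst, S100a1, Plet1 and Tac1 were tested only through the compared cells.

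Levels by the number of chosen genes that a cell showed are given as a description with no test, since the steps are set by the gate's own genes and the genes shown were mostly picked for being extreme in the members. Among cells that met the exclusions, Upp1 stood at 7.83, 70.8, 154 and 175 CPM in cells of replicate 1 with 0, 1, 2 and 3 chosen genes, and at 6.04, 87.1, 172 and 211 CPM in replicate 2. Adgrg2 rose over the same steps from 4.24 to 122 CPM and from 6.17 to 149 CPM, and Dcn from 557 to 1428 CPM and from 503 to 1397 CPM. Tectb fell from 470.2 over 93.3 and 35.8 to 16.7 CPM, and from 538 over 90.1 and 16.5 to 3.49 CPM. Igf1 was highest in cells with 2 chosen genes, at 118 and 164 CPM. Tecta showed no grading, at 615, 678, 580.1 and 709 CPM in replicate 1 and 632, 599, 599 and 751 CPM in replicate 2. Depth moved with these steps, from a median of 2868 and 2655 UMIs in cells with none to 3425 and 4449 UMIs in the members, and its part was not tested.

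**Figure D2:**
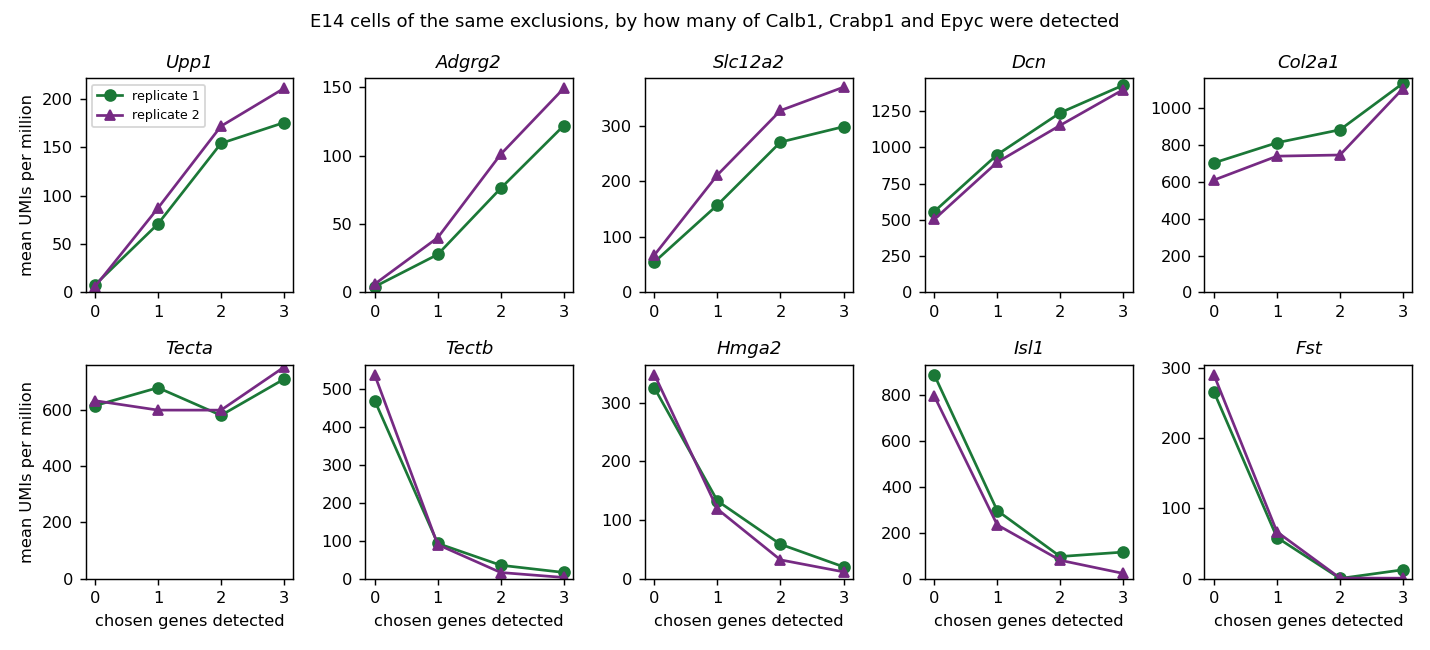
Mean CPM of 10 genes in E14 cells that met the exclusions, by the number of chosen genes (Calb1, Crabp1, Epyc) detected in the cell, with green for replicate 1 and purple for replicate 2; cells with 3 are the members. Upp1 climbs from 7.83 to 175 CPM and from 6.04 to 211 CPM, and Tectb falls from 470.2 to 16.7 CPM and from 538 to 3.49 CPM.

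Collagens of the future tectorial membrane and of cartilage were mostly higher. Of the 6 collagens tested, 5 were higher than in all other cells and 6 were higher than in same-exclusion cells, with medians of 0.63 and 0.65 on the log2 scale, and none was lower, where 3.12% and 2.52% of all genes tested were higher. Without the block the counts were 3 and 1. Col2a1, the fibrillar collagen of cartilage that is also in the tectorial membrane, stood at 1135 and 1106 CPM in members, against 686 and 648 CPM in all other cells and 772 and 666 CPM in same-exclusion cells (0.64 ± 0.068, limma adjusted p = 3.64e-18; 0.0808 without the block, and 0.28 with adjusted p = 0.222 with the gate set on thinned cells). Col11a2 was at 92.7 and 103 CPM against 30.7 and 34.6 CPM in all other cells (1.34), and Col11a1 at 206 and 203 CPM against 93 and 105 CPM (0.98). Among the collagen type IX chains, Col9a3 was at 792 and 713 CPM against 563 and 481 CPM (0.52). Col9a1 did not pass against all other cells (0.22, adjusted p = 0.092).

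Small leucine-rich proteoglycans, which bind collagen fibrils and to which Epyc belongs, were led by Dcn (decorin) and Lum (lumican). The filter on low values was passed by 3 of 12, and Dcn and Lum were higher in both comparisons, although against same-exclusion cells Dcn alone was called without the block (Lum 0.0659). Dcn stood at 1428 and 1397 CPM in members against 580.0 and 534 CPM in all other cells (1.33 ± 0.074, limma adjusted p = 4.59e-68), and Lum at 1977 and 1823 CPM against 1198 and 1092 CPM (0.73 ± 0.062, limma adjusted p = 2.36e-29). Lum was seen in every member and Dcn in 125 of 128 and 115 of 119. Ogn (osteoglycin) was scarce, at 25.1 and 25 CPM against 5.37 and 7.2 CPM, a log2 fold change of 1.11, and it passed the filter only through the members, so that its call was favoured by the filter.

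Other matrix genes moved mostly the same way. Of 14 tested, 8 were higher and 3 lower (Fbln2, Spock2, Sparc) than in all other cells, and 9 were higher and 0 lower than in same-exclusion cells. Over all genes tested 3.12% and 4.91% were higher and lower in the first comparison and 2.52% and 3.46% in the second. Without the block 6 were higher and 1 lower, and 1 (Sparcl1) was higher. Sparcl1, also a marker of the roof, was higher at 401 and 426 CPM against 158 and 184 CPM (1.23). Itga8, an integrin subunit, was at 182 and 158 CPM against 73.9 and 70.1 CPM (1.13; 0.70 with adjusted p = 0.17 with the gate set on thinned cells), and Pcolce2, an enhancer of procollagen processing, at 187 and 231 CPM against 84.7 and 91.1 CPM (1.15). The folding enzymes through which collagens pass did not rise as a group: 3 of 24 were higher and 3 lower than in all other cells, with a median of -0.06, and 0 were called by limma without the block (6 at an unadjusted p under 0.05). Fkbp10, a collagen-directed prolyl isomerase, was higher (0.43), and Sdf2l1, a stress-induced chaperone, was lower (-0.52).

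The tectorial membrane glycoproteins parted ways. Tecta (alpha-tectorin; chromosome 9: 42329619 to 42399929) stood at 709 and 751 CPM in members against 411 and 437 CPM in all other cells (0.77 ± 0.087, limma adjusted p = 1.76e-16). In same-exclusion cells it stood at 624 and 618 CPM, a difference just short of the threshold (0.23 ± 0.077, limma adjusted p = 0.05). Tectb, as given above, was nearly absent from the members. Otogl (otogelin-like) was at 12.9 and 6.19 CPM against 43.4 and 42.6 CPM in all other cells (-1.46), and Otog (otogelin) at 79.8 and 91.7 CPM against 92.8 and 92.4 CPM did not pass. Col27a1, counted with this list as a chain found in the membrane, was higher at 172 and 212 CPM against 85 and 114 CPM (0.89), a call lost without the block (adjusted p = 0.0876) and with the gate set on thinned cells (0.50, adjusted p = 0.384). At E14 the members therefore carried Tecta and fibril genes with little Tectb.

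**Figure D3:**
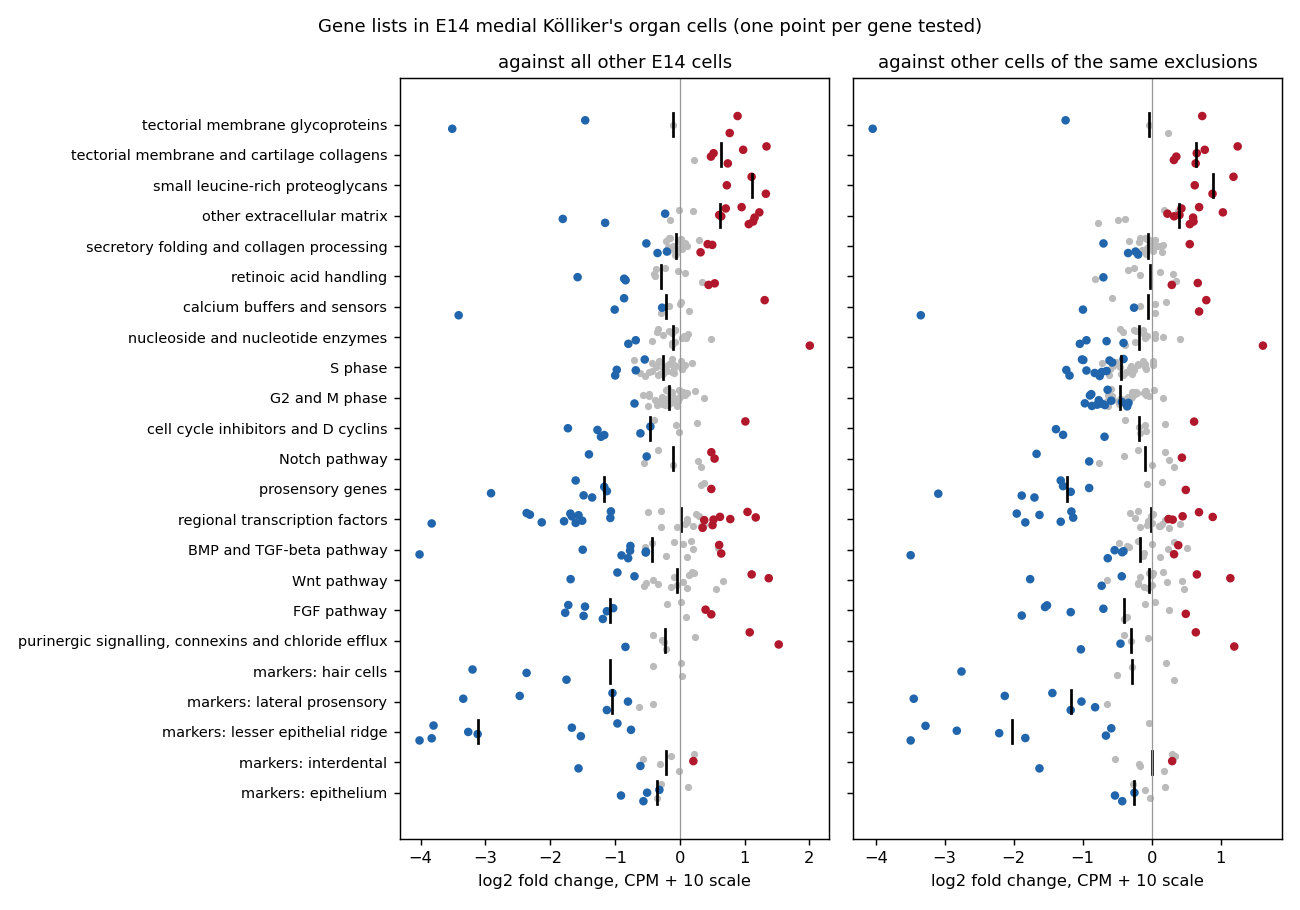
Log2 fold changes of CPM + 10 of single genes in each functional list, medial KO cells against all other E14 cells (left) and against same-exclusion cells (right), with red points for genes called higher, blue for lower and grey for not called, and a black bar at the list median. Collagens sit right of 0 (medians 0.63 and 0.65) and the prosensory and LER lists sit left of it.

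Retinoic acid handling and calcium buffering were examined because 2 of the chosen genes belong to them. Crabp2, the other cellular retinoic acid-binding protein, was higher at 580.4 and 585 CPM against 438 and 414 CPM in all other cells (0.44 ± 0.091, limma adjusted p = 3.31e-05). Of 12 genes of this list tested, 2 were higher, Crabp2 among them, and 3 were lower: Cyp26a1, which degrades retinoic acid, and Aldh1a3 and Rdh10, which help to make it. Cyp26a1 had no UMI in any member, against 15.1 and 25.5 CPM, and entered the test only through the cells where it is high. No other gene of the list was called without the block. Over all genes tested 3.12% were higher and 4.91% lower. Against same-exclusion cells 2 of 10 were higher and 1 (Cyp26b1) lower (2.52% and 3.46% of all genes), and Cyp26a1, Aldh1a3 and Rdh10 were not called. Aldh1a3 stood at 118 and 76.3 CPM in Otoa-positive cells, which the gate leaves out. Among 10 calcium buffers and sensors tested against all other cells, Efhd1, a mitochondrial calcium-binding protein, was higher at 291 and 275 CPM against 108 and 108 CPM (1.31), while 4 were lower, S100a1 among them (1 higher and 1 lower without the block).

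Genes tied to the later role of KO in ATP release and chloride efflux were examined next. Slc12a2 and Clic6, a chloride channel family protein, were the 2 of 8 tested that were higher (3.12% of all genes tested), Clic6 at 387 and 394 CPM against 174 and 185 CPM (1.08 ± 0.11, limma adjusted p = 4.56e-19). Ano1, the calcium-activated chloride channel TMEM16A, was lower at 9.95 and 6.47 CPM against 24.2 and 20.8 CPM (-0.84 ± 0.26, limma adjusted p = 0.0187), and was tested only through the compared cells. Gjb2, the connexin 26 gene, was lower than in same-exclusion cells, at 573 and 394 CPM against 695 and 615 CPM (-0.45 ± 0.084, limma adjusted p = 4.50e-06). Without the block Slc12a2 and Clic6 were still called against all other cells and neither Ano1 nor, against same-exclusion cells, Gjb2 was called.

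Signalling pathways differed between their members, and their counts stand beside 3.12% higher and 4.91% lower over all genes tested. In the FGF pathway, 2 of 12 genes tested were higher and 7 lower than in all other cells, Fgfr1 at 127 and 122 CPM against 86.2 and 85.7 CPM (0.49, a call lost in 8 alternatives), and Fgfr2 and the response genes Etv4, Etv5 and Dusp6 lower. Against same-exclusion cells 1 of 11 was higher and 5 lower (2.52% and 3.46% of all genes), Fgfr2 not among them. Against Otoa-positive cells 0 of 7 were called, where 1.4% of all genes were higher and 2.06% lower. Among 19 genes of the Wnt pathway, Rspo2 and Dkk3 were higher and 3 were lower, with the stem cell receptor Lgr5 at 1.83 and 3.46 CPM against 32.2 and 29.1 CPM (-1.69), and thus tested only through the compared cells. In the BMP and TGF-beta pathway 2 of 19 were higher (Tgfb2, Fstl1) and 8 lower, among them Fst, Nog, and the target genes Id1 to Id4, a direction in part fixed by the exclusion of Bmp4-positive cells. Against same-exclusion cells 2 of 18 were higher and 5 lower (2.52% and 3.46% of all genes), Nog and Id1 not among them. Against Otoa-positive cells 4 of 18 were higher, Id1 and Id2 among them, and none was lower (1.4% and 2.06% of all genes). Tgfb2 stood at 1078 and 1090 CPM against 686 and 731 CPM (0.61). In the Notch pathway 2 of 9 were higher (Hes1, Nrarp) and 2 lower (Hey1, Hes6). Hes1 was at 1428 and 516 CPM against 850.4 and 408 CPM (0.54), and thus differed more between libraries than between cells. Without the block 0 were higher and 4 lower in the FGF pathway, 2 and 2 in the Wnt pathway, 2 and 2 in the BMP and TGF-beta pathway, and 0 and 0 by limma in the Notch pathway, where 4 genes had an unadjusted p under 0.05.

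Among 32 regional transcription factors tested, 8 were higher and 12 lower than in all other cells (3.12% and 4.91% of all genes), and without the block 0 were higher and 10 lower. The lower genes include factors of the excluded cells, and Otx2, Tbx1 and Tbx3, with no UMI in any member, were tested only through the compared cells. Against same-exclusion cells 5 of 26 were higher and 6 lower (2.52% and 3.46% of all genes). Prdm16 stood at 98.7 and 147 CPM against 46 and 50.1 CPM (1.17 ± 0.17, limma adjusted p = 9.12e-10), a difference that missed the threshold without the block (adjusted p = 0.0568). Ebf1 stood at 1074 and 1336 CPM against 579 and 832 CPM (0.78 ± 0.073, limma adjusted p = 5.66e-24), and Klf2 at 639 and 315 CPM against 264 and 171 CPM (1.04 ± 0.11, limma adjusted p = 6.35e-20). Emx2 was at 2.52 and 0 CPM against 60.6 and 37 CPM (-2.36), and Lmx1a, of the roof, at 3.17 and 3.23 CPM against 50.7 and 45.1 CPM (-2.13). Gata3, a factor of the prosensory domain and the LER, was lower but present, at 144 and 75.1 CPM against 371 and 309 CPM (-1.61).

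Part of the cell cycle genes were lower than in same-exclusion cells. Against Fgf20-positive and Otoa-positive cells at most 2 genes of either list were lower, and no difference from these neighbours was shown. Of 35 S phase genes tested there, 0 were higher and 12 lower (median -0.44), and of 40 G2 and M phase genes 0 were higher and 13 lower (median -0.46), where 2.52% and 3.46% of all genes tested were higher and lower. By limma without the block 0 genes of either list were called, with 17 and 17 at an unadjusted p under 0.05, while with the gate set on thinned cells 7 of 33 and 13 of 37 were lower. Pclaf, a partner of the replication clamp, stood at 100.1 and 114 CPM against 198 and 256 CPM (-1.01 ± 0.14, limma adjusted p = 7.13e-11). Top2a, the topoisomerase of dividing cells, was at 24.7 and 43.5 CPM against 51.7 and 72 CPM (-0.72 ± 0.21, limma adjusted p = 0.0129), whereas Mki67 did not pass (-0.47, adjusted p = 0.322). Against all other E14 cells 4 of 34 S phase and 1 of 39 G2 and M phase genes were lower, where 4.91% of all genes were. In cells thinned to 1500 UMIs, 5 or more S phase UMIs were found in 14.1% and 10.9% of members, against 24.9% and 26.5% of same-exclusion cells, 12.8% and 22.7% of Fgf20-positive cells, 18.5% and 18.3% of Otoa-positive cells, and between 7.81% and 10.1% of Bmp4-positive, Atoh1-positive and Oc90 cells. For G2 and M phase genes the shares were 13.3% and 21.0% against 24.5% and 28.5%, with 17.9% and 21.6% in all other E14 cells, 15.1% and 23.6% in Fgf20-positive cells and 19.3% and 18.95% in Otoa-positive cells. In replicate 2 the members were thus about level with these last 3 sets. Bmp4-positive, Atoh1-positive and Oc90 cells had lower shares than the members of their library, between 1.64% and 11.2%. Before thinning, at the greater depth of the members, the S phase shares were 55.5% and 63.0% of members against 56.1% and 53.5%, and the G2 and M phase shares 51.6% and 61.3% against 51.3% and 53.0%. Members rich in these transcripts were thus present, and on thinned cells at lower shares than in same-exclusion cells of their library.

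Regulators of cell cycle exit did not follow a single direction. Cdkn1b, the inhibitor p27 of the prosensory domain, was at 7.04 and 9.17 CPM against 36.2 and 31.9 CPM in same-exclusion cells (-1.28 ± 0.26, limma adjusted p = 3.38e-05), and was tested only through those cells. Ccnd1 (cyclin D1) was at 164 and 99.9 CPM against 326 and 379.5 CPM (-1.39 ± 0.12, limma adjusted p = 2.41e-26). Mycn, a growth-promoting transcription factor, was higher at 458 and 293 CPM against 299 and 185 CPM (0.61 ± 0.11, limma adjusted p = 1.40e-06). In all, 1 of 10 genes of this list was higher and 3 lower (2.52% and 3.46% of all genes tested), and 0 were called by limma without the block (4 at an unadjusted p under 0.05).

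The study's own lists of KO cluster genes rose for the most part, but they were chosen on these samples and are not independent evidence of direction. Of the 40 genes listed for E14, all tested, 29 were higher and 2 lower than in all other cells (median 0.77), and 24 were higher and 9 lower than in same-exclusion cells (median 0.44). The 9 that were lower there, among them Pclaf, Stmn1, Tubb5, Tuba1b, Cks1b and Smc4, are genes of the cell cycle, chromatin and microtubules. Over all genes tested 3.12% and 4.91% were higher and lower in the first comparison and 2.52% and 3.46% in the second. Without the block 18 were higher and 0 lower, and 3 were higher and 0 lower. Of the 54 genes listed for E16, 43 were higher and 1 (Id1) lower than in all other cells (median 0.70), and 39 were higher and 0 lower than in same-exclusion cells (median 0.46). Without the block 22 and 5 were higher and none was lower.

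On the lateral side, the members were set against Fgf20-positive cells, which stand for the medial prosensory domain but also held markers of the lateral prosensory and LER lists. Of 8828 genes, 345 were higher (3.91%) and 462 lower (5.23%) in medial KO cells, with 1736 at an unadjusted p under 0.05. Without the block 187 were higher and 295 lower. Upp1 was at 20.9 and 0 CPM in Fgf20-positive cells (3.52 ± 0.3, limma adjusted p = 8.55e-20), Adgrg2 at 6.87 and 4.09 CPM (3.23 ± 0.31, limma adjusted p = 2.05e-16), Meg3 at 36.2 and 42.7 CPM (3.04 ± 0.21, limma adjusted p = 1.82e-26) and Slc12a2 at 45.4 and 27.6 CPM (2.91 ± 0.22, limma adjusted p = 5.42e-23). Tmem132c (2.81) and Serpinb5, the serpin maspin (2.68), completed the largest rises. Adgrg2 and Serpinb5 were under 10 CPM in Fgf20-positive cells and were tested only through the members, and of the genes that fell, given next, Fst, S100a1, Cdkn1b, Ngfr, Hey2, Lfng and Jag1 only through the Fgf20-positive cells. All 6 collagens tested were higher, with a median of 1.28, as were Lum (2.27) and Dcn (2.09), and 8 of 14 other matrix genes were higher with 1 lower.

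Prosensory genes fell together against the Fgf20-positive cells, as the choice of those cells in part fixes: 9 of 11 were lower and 0 higher, with a median of -2.15. Of these 9, Cdkn1b, Ngfr (no UMI in any member), Hey2 and Lfng were tested only through the Fgf20-positive cells. All 9 lateral prosensory markers tested and 5 of 7 LER markers were lower too (medians -2.05 and -2.75), where 5.23% of all genes were. Fgf20-positive cells had 401 and 327 CPM of Fst and 1307 and 1134 CPM of Socs2. Isl1 stood at 1382 and 1638 CPM in Fgf20-positive cells (-4.55 ± 0.18, limma adjusted p = 1.32e-47), and Sox2, the master factor of the domain, at 316 and 114 CPM against 32 and 1.61 CPM in members (-3.19 ± 0.28, limma adjusted p = 3.39e-19). Tectb stood at 726 and 1084 CPM in Fgf20-positive cells, above the other sets compared here at E14 (-5.56 ± 0.23, limma adjusted p = 2.59e-47). S100a1 (-5.05), Socs2 (-4.99), Fst (-4.57) and Hmga2 (-4.53) were the other largest falls. The Notch effectors Hey1 and Hey2, the ligand Jag1, the receptor-modifying Fringe enzyme Lfng and the Hes family gene Hes6 were lower, while Hes1 was higher (1.62). Cyp26b1, which degrades retinoic acid, was at 22.9 and 20.0 CPM in members against 153 and 158 CPM (-2.40). Tecta did not differ by the test, at 614 and 793 CPM (0.06 ± 0.12, adjusted p = 0.84).

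Sox2 and other prosensory transcripts differed between the member libraries. Sox2 stood at 32 CPM in replicate 1, with a UMI in 17 of 128 members, and at 1.61 CPM in replicate 2, with a UMI in 2 of 119. Hey1 was at 63.1 and 15.4 CPM, Isl1 at 116 and 23.2 CPM and Socs2 at 61.8 and 10.7 CPM. Same-exclusion cells had 96.8 and 38.2 CPM of Sox2, so that library was higher there too, and Isl1 was alike in the libraries there. Cells with Oc90 at 2.5 or more, which should lack Sox2, had a Sox2 UMI in 1.45% and 1.05% at median depths of 4621 and 4365.5 UMIs, against 13.3% and 1.68% of members at 3425 and 4449 UMIs. The share of members in replicate 2 was near that of the Oc90 cells. These shares are before thinning, and the part of RNA from other cells in them was not tested.

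On the medial side the members were set against Otoa-positive cells. Of 8758 genes, 123 were higher (1.4%) and 180 lower (2.06%) in medial KO cells, with 1077 at an unadjusted p under 0.05, and without the block 42 were higher and 77 lower. Abcg5 was at 6.76 and 15.6 CPM in Otoa-positive cells (2.21 ± 0.29, limma adjusted p = 2.03e-11), Itga8 at 48.5 and 25 CPM (1.99 ± 0.22, limma adjusted p = 2.68e-16) and Atp1b1, a subunit of the sodium pump, at 84.3 and 58.7 CPM against 275 and 288 CPM in members (1.85 ± 0.18, limma adjusted p = 1.08e-21). Thrb, the thyroid hormone receptor beta, stood at 64.4 and 100.4 CPM in members against 14.4 and 14.8 CPM (1.88 ± 0.29, limma adjusted p = 1.25e-08). Adgrg2 (1.63) was higher as well, and Slc24a3 (1.60) was higher but missed the threshold with the gate set on thinned cells (adjusted p = 0.192). Slc24a3 was under 10 CPM in Otoa-positive cells and was tested only through the members, and Ccnd2, Aldh1a3, Man1c1 and Svopl, given next, only through the Otoa-positive cells.

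All 8 interdental markers were lower than in Otoa-positive cells (median -2.10), where 2.06% of all genes tested were. The exclusion of Otoa in part fixes this direction. The same 8 genes were mixed in the other comparisons. Relative to all other E14 cells 1 (Ptn) was higher and 2 (Foxq1, Cdkn1c) were lower (median -0.22). Relative to same-exclusion cells 1 was higher and 1 lower. Relative to Fgf20-positive cells 4 (H19, Smoc2, Ptn, Cdkn1c) were higher and 0 lower (median 1.17). Foxq1, a forkhead factor, stood at 11.7 and 18.5 CPM in members against 269 and 336 CPM (-3.65 ± 0.23, limma adjusted p = 1.88e-54), and Cdkn1c, the cell cycle inhibitor p57, at 635 and 536 CPM against 2588 and 2586 CPM (-2.13 ± 0.077, limma adjusted p = 1.44e-158). Ccnd2 (-2.88), Aldh1a3 (-2.77), Pla2r1 (-2.76), Man1c1 (-2.63) and Svopl (-2.48) were the other largest falls. Mia, a secreted cartilage protein, was lower than in Otoa-positive cells (-0.65) and higher than in Fgf20-positive cells (2.15). Slc12a2 stood at 267 and 424 CPM in Otoa-positive cells (-0.02, adjusted p = 0.976), Rspo2 at 132 and 90.2 CPM (0.02, adjusted p = 0.984) and Clic6 at 371 and 332 CPM (0.15, adjusted p = 0.714), and none of these 3 passed the test. Upp1 was at 122 and 94.7 CPM (0.78 ± 0.18, limma adjusted p = 8.99e-04), a call that was lost without the block (adjusted p = 0.0563), with the gate set on thinned cells (0.0862) and in a fit over 7 classes of cells (0.255). Of the collagens 3 of 6 were higher (Col9a1, Col2a1, Col9a3), where 1.4% of all genes tested were, with Col9a1 at 375 and 289 CPM in Otoa-positive cells (1.03).

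**Figure D4:**
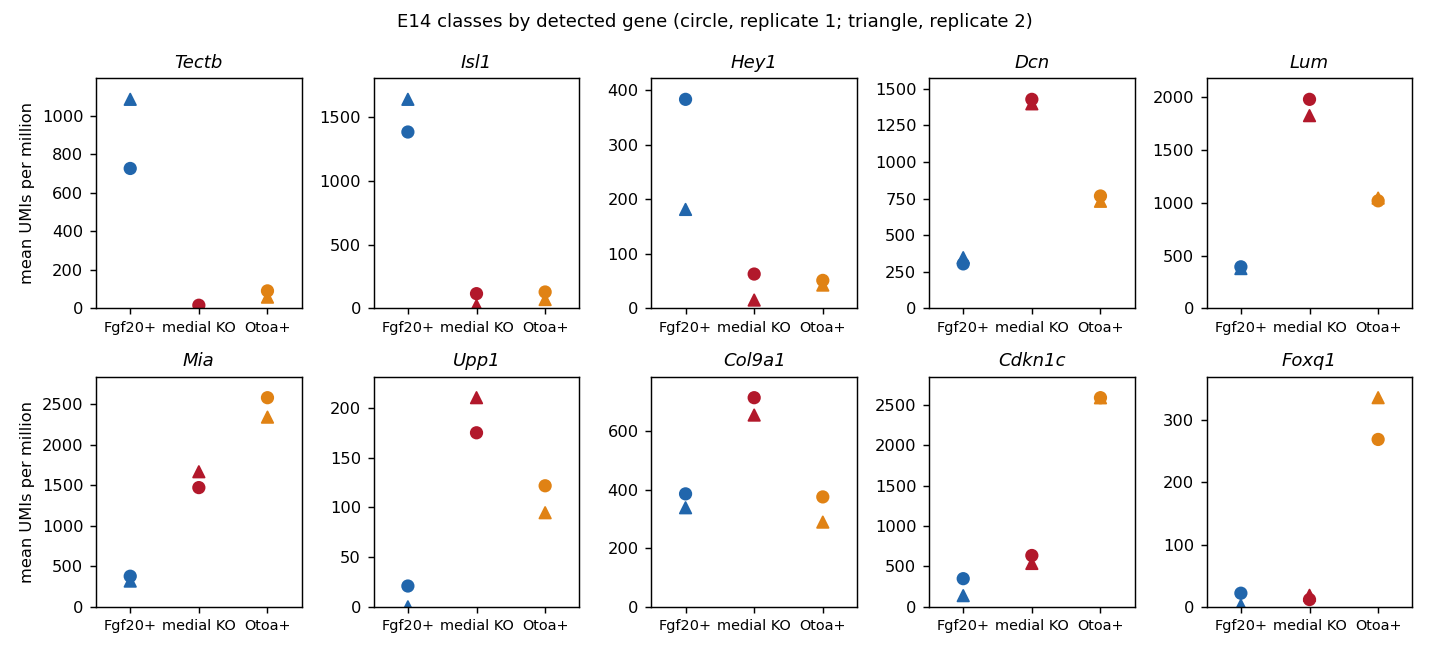
Mean CPM of 10 genes in Fgf20-positive cells, medial KO cells and Otoa-positive cells, with a circle for replicate 1 and a triangle for replicate 2. The order is the assumed one from lateral to medial, since position was not measured. Tectb and Isl1 are highest in Fgf20-positive cells (Tectb 726 and 1084 CPM), Dcn, Lum and Upp1 in medial KO cells, and Cdkn1c and Foxq1 in Otoa-positive cells.

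The same gate was then set on the other ages, whose tables were made separately, so these values are set side by side with no test. It kept 17.5%, 26.6% and 25.9% of the cells of the E16 libraries, 37.1%, 42.9%, 44.8% and 30.8% at P1, and 1 of 1775 and 0 of 1602 cells at P7, where a count of 0 allows a share of up to 0.187%. At P7 it was Crabp1 that was missing: in cells thinned to 1500 UMIs it was seen in at most 0.125%, while Calb1 was seen in 14.4% and 15.7% and Epyc in 64.2% and 53.3%. The shares were also higher than at E14 on cells thinned to 1500 UMIs, from 2.64% and 1.47% at E14 to between 13% and 21.1% at E16 and between 18.2% and 33.7% at P1. Passing cells of the later ages need not be the descendants of medial cells alone, since Calb1, Crabp1 and Epyc were more widely read there: the mean Epyc level of cells outside the gate was 392 CPM at E14 and 1119 CPM at E16.

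Levels in passing cells fell into groups by age. Igf1 was 112 ± 24.1 CPM (SD, n = 2 libraries) at E14, 579 ± 182 CPM (n = 3) at E16 and 479 ± 62.6 CPM (n = 4) at P1, so E14 lay below both later ages and these did not differ beyond their spread. Col9a3 climbed from 752 ± 55.8 CPM over 1181 ± 449.5 CPM to 2526 ± 186 CPM, and Col9a1 stood at 684 ± 42, 783 ± 136 and 2116 ± 653 CPM. Genes of proliferation went the other way. Pclaf went from 107 ± 9.61 CPM over 18.2 ± 11.9 CPM to 2.01 ± 0.511 CPM, Mycn from 375 ± 117 over 179 ± 77.1 to 91.4 ± 43.4 CPM, and Ccnd1 from 132 ± 45.5 over 39.2 ± 6.68 to 16.6 ± 8.12 CPM. Cells outside the gate moved alike with age, Pclaf from 162 over 47.4 to 2.05 CPM, Ccnd1 from 324 over 141 to 40.7 CPM, Mycn from 181 over 127 to 101 CPM, Col9a3 from 522 over 666 to 1697 CPM, Col9a1 from 587 over 603 to 2346 CPM, and Igf1 from 88.5 over 301 to 194 CPM, so these courses were not confined to the passing cells.

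Among the genes that set the E14 members apart, some were of their age and others lasted. Rspo2 stood at 111 ± 8.42 CPM at E14, 92.5 ± 19.9 CPM at E16 and 30.0 ± 4.5 CPM at P1, and Tmem266 at 196 ± 18.2, 110.2 ± 17.3 and 32 ± 10.9 CPM. Clic6 stood at 390.3 ± 5.13 CPM at E14 and at 178 ± 24.3 and 153 ± 33.7 CPM later. Tmem266 and Clic6 were higher in both E14 libraries than in any later library, while Rspo2 overlapped between E14 and E16 (up to 112 CPM). Outside the gate Tmem266 also went down with age, from 65.8 over 55.1 to 27.7 CPM, and Clic6 from 180 over 97.4 to 97.4 CPM. Dcn stood at 1413 ± 21.7, 1233 ± 269 and 710 ± 149 CPM, against 557, 520 and 686 CPM outside the gate. Col2a1 stood at 1121 ± 20.2, 1530 ± 176 and 2024 ± 458 CPM, against 667, 925 and 1975 CPM. Neither gene thus stood apart beyond its spread at P1. Lum and Col11a2 were still higher at P1, at 2415 ± 1251 and 261 ± 65.1 CPM against 914 and 171 CPM. Upp1 was level from E14 (193 ± 25 CPM) to E16 (192 ± 27.5 CPM) and was 111 ± 34.9 CPM at P1. Adgrg2 peaked at E16, at 359.7 ± 143 CPM, between 136 ± 19.3 CPM at E14 and 140.2 ± 24.5 CPM at P1. Outside the gate Adgrg2 took the same course at lower levels (20.3, 79.8 and 36.3 CPM), as did Upp1 (40.3, 42.6 and 17.8 CPM), and Rspo2 stood at 36.9, 52.4 and 17.4 CPM. Tectb, nearly absent at E14 (10.1 ± 9.36 CPM), was 30.3 ± 13.9 CPM at E16 and 179 ± 229 CPM at P1, where libraries ranged from 61.1 to 522 CPM and cells outside the gate had 1887 CPM. Gata2 went from 7.33 CPM at E14 over 33.7 CPM to 149.7 CPM at P1, while outside the gate it went from 240 over 108 to 60.6 CPM.

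**Figure D5:**
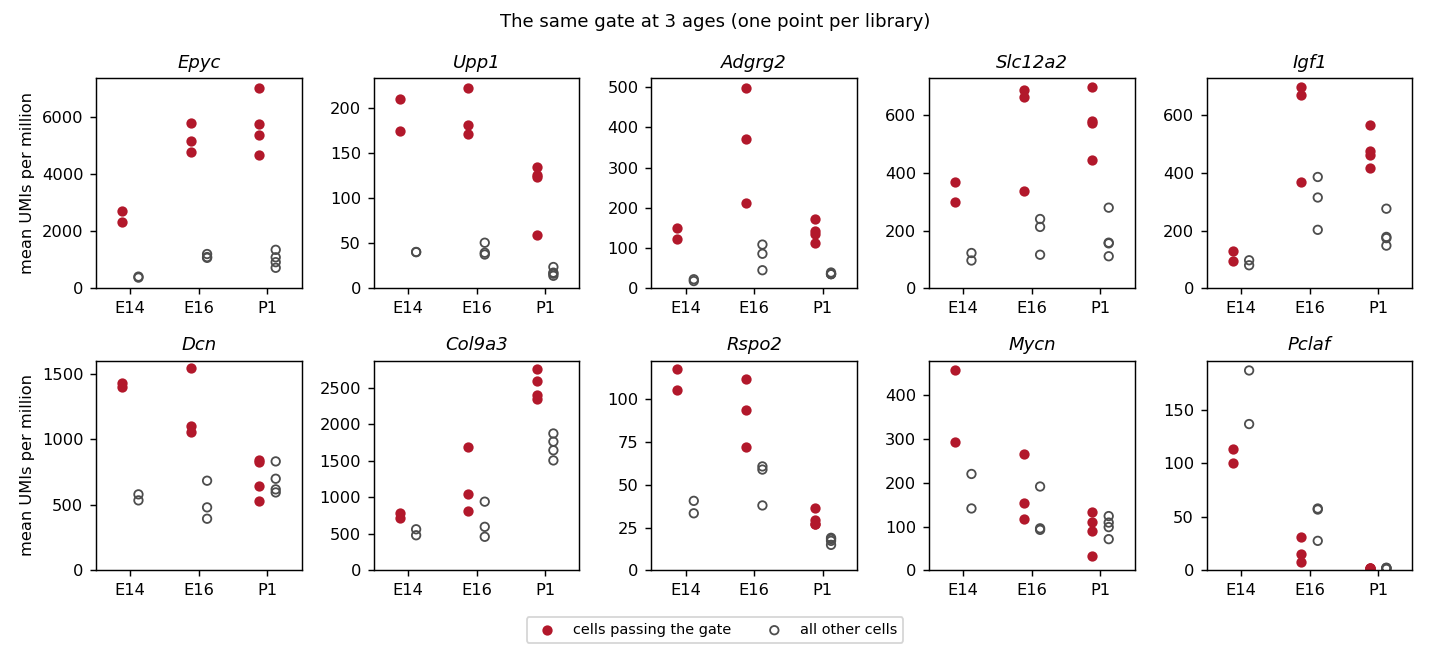
Mean CPM of 10 genes in the cells that passed the same gate at E14, E16 and P1, 1 point for each library (2, 3 and 4). Filled red points are the passing cells and open points all other cells. Igf1 and Col9a3 lie higher at the later ages, Rspo2, Mycn and Pclaf lie lower at P1, and Upp1 is level from E14 (193 CPM) to E16 (192 CPM).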

How the data were processed

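The deposited tables (1 per age) held the authors' values on a natural log scale, ln(1 + 10000 times the gene's share of the UMIs of a cell), made with Cell Ranger 2.1.1 and Seurat 2.0 on mm10 as named in the submitters' processing notes and the study's methods. Whole UMIs were recovered from them for 100% of E14 values within 2%. The study names filters on cells of many genes or UMIs. Cells over 3000 genes were present and were kept. They were 22 of 128 and 30 of 119 members, and 318 of 2070 and 522 of 2936 other E14 cells. Among same-exclusion cells they were 93 of 1178 and 199 of 1813. With such cells left out, 479 of the 708 genes called against all other cells were still called, and 374 of 522 against same-exclusion cells. Scrublet in scanpy 1.11.5 marked 4 and 3 E14 cells and no member, too few to have worked, so no doublets were removed.

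Mean CPM per library and class (4 profiles a fit) were tested as log2(CPM + 10) with limma 3.58.1 in R 4.3.3 (mean trend, library block, Benjamini-Hochberg, threshold 0.05, two-sided) where a gene averaged 10 CPM or more. The block pairs profiles of the same pool of animals. Tests were tried on simulated data. Genes were named as the largest changes among calls of like sign in both libraries (12 up and 10 down, 8 and 8, 6 and 6, 6 and 6 in the order of the report; gate, Xist, mitochondrial, ribosomal, haemoglobin, Gm and Rik genes left out), beside members of the gene lists. E14 libraries held 10284500 and 14420800 UMIs. Coordinates are from GENCODE M21 (GRCm38). Members, lists and tests were chosen with earlier results of these data known. Alternatives are given in the closing section.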

Additional observations from a re-analysis of the deposited data

Results flagged for a closer look

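In the P1 cells that passed the gate, 7 of 59 groups of 4 libraries tested (the share of passing cells and 58 genes) held a library far from the other 3 by Dixon's ratio. Chance flags about 1 in 20 such groups. In 4 cases this was P1 replicate 1. Tectb stood at 522 CPM there and at 61.1, 65.1 and 68.9 CPM in the others (ratio 0.983), so the P1 mean of Tectb rests on that library. S100a1 stood at 295 CPM there and at 52.9, 77.8 and 88.7 CPM in the others. Meg3 stood at 639 CPM against 1209, 1223 and 1231 CPM, and Col9a2 at 1552 CPM against 2090.5, 2175 and 2179 CPM. In 3 cases it was P1 replicate 4, the library with the lowest median depth at P1 (3831.5 UMIs, against 5227 to 5647.5 in the others). Gjb6, which encodes connexin 30, stood at 117.7 CPM there and at 37.2, 47.3 and 49.4 CPM in the others. Upp1 stood at 59.0 CPM there and at 124, 126 and 135 CPM in the others, all above the P1 mean of 111 CPM. Cdkn1c stood at 487 CPM against 926, 927 and 987 CPM. The part of depth in these values was not tested.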

How the results depend on the processing

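Under the alternatives run, the genes named in the report that were called kept their direction wherever they were tested. Many of their calls ended in the fit without the replicate block, which ended 42 of 97 against all other cells, 68 of 87 against same-exclusion cells, 8 of 77 against Fgf20-positive cells and 16 of 44 against Otoa-positive cells, and with the gate set on thinned cells, which ended 25 of 96, 27 of 87, 12 of 77 and 18 of 44. The fit over 7 classes ended 34 of 87 against same-exclusion cells. Of all genes called, named or not, at most 4 of those tested changed direction under any setting. Counts of genes higher and lower, each in turn, moved by over 1.5 times as follows, and the cause was not tested. Without the replicate block, which pairs the profiles of a library and is backed by their shared pool of animals, they were 61 and 141 against all other cells, 8 and 25 against same-exclusion cells, 187 and 295 against Fgf20-positive cells, and 42 and 77 against Otoa-positive cells. With the gate set on cells thinned to 1500 UMIs, which leaves fewer members, they were 111 and 198, 79 and 149, 148 and 215, and 46 and 67, and the share of members fell from 4.86% to 2.06%. With Oc90 at 0 in the gate they were 162 and 279, 129 and 188, and 181 and 262 in the first 3 comparisons, with a share of 3.42%. With 2 UMIs of each chosen gene, a setting chosen after seeing the data, they were 157 and 275 against all other cells and 74 and 98 against Otoa-positive cells. Testing genes of any level gave 138 higher against all other cells and 538 lower against same-exclusion cells. A mean of at least 50 CPM, which tests fewer genes, gave 204, 196 and 268 lower in the first 3 comparisons. A fit over 7 classes gave 285 lower against all other cells, 61 and 139 against same-exclusion cells, and 549 higher against Fgf20-positive cells. Leaving out cells over 3000 genes gave 115 lower against Otoa-positive cells. The share of members ran from 3.90% to 5.82% with either library left out, and gene counts could not be fitted then, since 1 profile a class leaves no residual.

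Among the losses without the replicate block, Isl1 (adjusted p = 0.0861) and Sox2 (0.484) lost their call against all other cells without it, and Clic6 (0.0719), Col9a1 (0.338), Prdm16 (0.154) and Sox2 (0.386) against same-exclusion cells. Tecta against same-exclusion cells passed with a pseudocount of 1 CPM (adjusted p = 0.0488), with the higher filter (0.0294) and centred on the median gene (0.0395). Against Otoa-positive cells Tecta lost its call in 4 settings. Depth limits scarce genes most: many members rest on 1 Crabp1 UMI.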
